A study of Mus musculus with 39 samples.

Results

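Gene expression in the liver was set against gene expression in skeletal muscle of mice that had received the synthetic glucocorticoid dexamethasone (Dex). All 5 liver libraries and all 5 muscle libraries of the 3-week Dex experiment were taken, which are 10 of the 39 samples of the series. The series asks how E47, a basic helix-loop-helix (bHLH) transcription factor, takes part in gene regulation by the glucocorticoid receptor (GR). Each tissue was represented by 3 E47KO and 2 WT libraries. E47KO mice were E47-/- throughout the body, WT mice were E47+/+, and all were C57BL/6 males on chow that drank 10 µg/ml dexamethasone for 3 weeks and were killed after a glucose tolerance test. The muscle was the quadriceps, and the values are reads counted per gene in unstranded poly(A) RNA-Seq libraries. No muscle from mice without Dex was analysed here, so every difference given below is a difference between 2 Dex-exposed tissues and not a response to Dex. The labelled genotype could not be checked from the counts of *Tcf3*, the gene for E47, since it also encodes the splice form E12.

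Liver and skeletal muscle are the main metabolic targets of glucocorticoids. The liver takes up amino acids and glycerol, makes glucose from them, turns ammonia into urea, secretes most plasma proteins and converts cholesterol to bile acids. Skeletal muscle burns glucose and fatty acids for contraction, stores glycogen for its own use and holds most of the body's amino acids in its contractile proteins, which glucocorticoids help to mobilise. Because muscle lacks glucose-6-phosphatase, it releases lactate and alanine rather than glucose. Many enzymes and transporters exist as a liver gene and a muscle gene that carry out the same reaction with different control.

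The libraries held 17495304 to 21447274 gene counts in liver and 40375225 to 45967218 in muscle. Tissue went with sequencing depth, with separate runs of library numbers in the labels and, by the study's methods though not by the labels, with the way RNA was purified, and these cannot be told apart from tissue. Animal numbers on the files show that 3 of the 7 mice gave both tissues. The libraries of the groups are therefore not fully independent, and the p-values rest on the spread between libraries. E47KO replicate 3 and WT replicate 2 of each tissue came from mice that gave a single tissue. Their animal numbers lie apart from those of the mice that gave both. An effect of this split was not tested. Pairs of libraries of the same tissue differed by 21.3 to 115.6 times the counting error (chi-square per degree of freedom), so none was a repeat deposit. Levels are given as CPM, counts scaled to a common library size by TMM, and differences as the log2 fold change fitted by edgeR, liver minus muscle, so that positive values are higher in liver. Adjusted p-values are Benjamini-Hochberg values over all genes tested, with 0.05 as the threshold. In whole tissue, fewer cells of a type and less RNA per cell cannot be told apart.

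The labelled tissues matched their defining genes. All 12 hepatocyte markers were higher in liver and all 12 myofibre markers were higher in muscle, and the summed hepatocyte markers (here and below, CPM of library totals without TMM) reached 136128 to 152635 CPM in liver against 18.1 to 305 CPM in muscle. In the muscles other than WT muscle replicate 2, *Cyp2e1* and *Pck1* made up most of the hepatocyte sum. E47KO muscle replicate 1 held 130 CPM of each in a sum of 261 CPM. WT muscle replicate 2 held 55.6 CPM of *Cyp2e1* and 45.4 CPM of *Pck1* in a sum of 305 CPM. Summed myofibre markers stood at 210723 to 259947 CPM in muscle and 8.97 to 28.2 CPM in liver. WT muscle replicate 2 carried more hepatocyte transcripts than the other muscles. Albumin (*Alb*) was at 0.581 to 6.95 CPM in the other 4 muscles, highest in E47KO muscle replicate 3, and at 127 CPM in WT muscle replicate 2. Among the genes chosen for naming this library changed the direction of no called gene, but 33 liver genes had a log2 difference that moved by more than 1.5-fold without it, and both values are given where that matters. E47KO liver replicate 3 was the lowest liver for many glucocorticoid target genes, as described with them.

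Of 14756 genes tested, 12171 (82.5%) passed the adjusted p-value threshold in edgeR's quasi-likelihood test with genotype as a covariate. Of these, 5990 (40.6% of all tested) were higher in liver and 6181 (41.9%) were higher in muscle. At least 4-fold differences were called for 5024 genes (34.0%), with 2606 (17.7%) higher in liver and 2418 (16.4%) in muscle. Differences of 100-fold or more were called for 739 genes toward liver and 616 toward muscle, whereas 3888 called genes differed by less than 2-fold. In 73.8% of the genes the 5 livers and the 5 muscles did not overlap at all. The median log2 difference over all genes was −0.03 and the median of its size was 1.21. These medians, and the called shares of 40.6% for liver and 41.9% for muscle, are the background for every gene group below. Across genes, log2 levels correlated at r = 0.978 to 0.994 between livers, 0.983 to 0.991 between muscles and 0.470 to 0.532 between a liver and a muscle, where genes are not independent replicates.

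**Figure D1:**
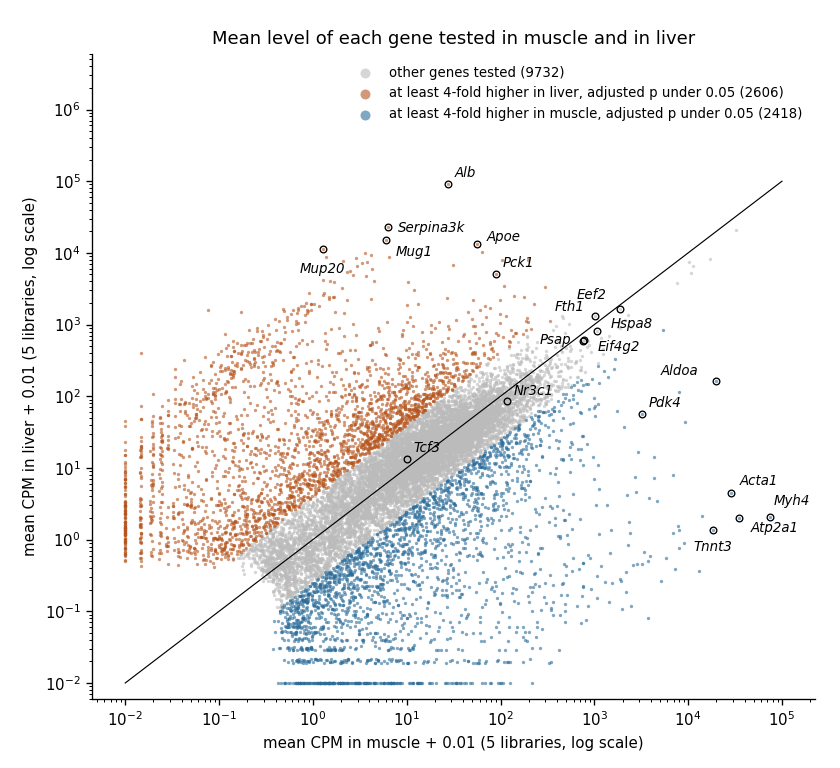
Mean level of each of the 14756 tested genes in muscle (x axis) and in liver (y axis), as CPM + 0.01 on log scales, each the mean of 5 libraries, with the line of equal levels. Orange points are the 2606 genes called at least 4-fold higher in liver and blue points the 2418 called at least 4-fold higher in muscle. *Alb* and *Myh4* lie farthest out on the liver and muscle sides, while *Eef2*, *Fth1*, *Hspa8*, *Eif4g2* and *Psap* lie near the line at high levels.

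Both transcriptomes were dominated by the products that define the tissue. In liver, *Alb* alone took 8.93 ± 0.84% (SD, n = 5) of gene counts, followed by the protease inhibitor gene *Serpina3k* (2.25%), and *Mug1*, *Apoe*, *Mup20*, *Cyp2e1*, *Apoa1*, *Ahsg* and *Mat1a* were also among the 10 largest. In muscle, the fast myosin heavy chain *Myh4* took 7.53 ± 1.51%, the sarcoplasmic reticulum calcium pump *Atp2a1* 3.58%, skeletal actin *Acta1* 2.94% and aldolase *Aldoa* 2.02%. The 10 largest genes of a library made up 27.0 ± 1.83% of counts in muscle and 21.2 ± 1.24% in liver (exact permutation test, two-sided, n = 5 per tissue, p = 0.00794, adjusted over 5 measures 0.00992, the smallest this design allows). The share of the 100 largest genes was also higher in muscle, at 53.0 ± 1.74% against 47.6 ± 1.40% (exact permutation p = 0.00794, adjusted 0.00992). After thinning all libraries to the same depth, 11700 ± 228 genes in liver and 11861 ± 148 in muscle reached 1 CPM, a difference that did not pass the test (exact permutation p = 0.246).

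The start regions of 5 genes that stand for the groups described below are shown as they appear in RefSeq (build GRCm38.p6), 200 bases before the annotated start, read in the direction of the gene. *Alb* and the gluconeogenic enzyme gene *Pck1* were chosen for liver, *Myh4* and *Acta1* for the contractile apparatus, and the ubiquitin ligase gene *Trim63* as a muscle atrophy gene. Capitals mark matches, on either strand, to the TATA box TATAAA, to the E-box CAGCTG (of the motif class that E proteins such as E47 bind) and the related E-box CAGGTG, to GTTAAT as part of an HNF1 site, to AGAACA as part of a GR element, and to the MEF2 and CArG box (serum response factor) motifs.
Alb, chr5:90460670-90460869 (+ strand): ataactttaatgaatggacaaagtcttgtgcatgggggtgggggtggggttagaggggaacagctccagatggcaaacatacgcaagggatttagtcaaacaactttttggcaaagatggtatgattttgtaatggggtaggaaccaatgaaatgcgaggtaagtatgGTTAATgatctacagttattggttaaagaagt
Pck1, chr2:173152873-173153072 (+ strand): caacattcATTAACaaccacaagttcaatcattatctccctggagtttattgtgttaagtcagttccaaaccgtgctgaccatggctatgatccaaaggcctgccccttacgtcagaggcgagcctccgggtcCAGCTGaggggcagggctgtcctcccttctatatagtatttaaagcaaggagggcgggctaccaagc
Myh4, chr11:67237612-67237811 (+ strand): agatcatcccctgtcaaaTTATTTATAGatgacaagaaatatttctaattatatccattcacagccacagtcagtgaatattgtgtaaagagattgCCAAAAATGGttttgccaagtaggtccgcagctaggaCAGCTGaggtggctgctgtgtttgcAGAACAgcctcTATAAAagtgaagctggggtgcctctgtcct
Acta1, chr8:123894776-123894975 (- strand): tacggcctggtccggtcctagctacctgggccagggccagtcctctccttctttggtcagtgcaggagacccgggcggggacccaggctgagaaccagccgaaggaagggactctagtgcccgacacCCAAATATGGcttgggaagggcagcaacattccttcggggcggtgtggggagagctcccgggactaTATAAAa
Trim63, chr4:134314920-134315119 (+ strand): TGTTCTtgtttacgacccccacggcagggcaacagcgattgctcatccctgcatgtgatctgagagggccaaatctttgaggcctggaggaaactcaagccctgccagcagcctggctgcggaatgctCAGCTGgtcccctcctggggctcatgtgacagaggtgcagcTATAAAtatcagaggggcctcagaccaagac
The *Myh4* window holds a MEF2 match at −182 to −173 with a TATAAA inside it, a CArG box at −104 to −95, CAGCTG at −67 to −62, AGAACA at −42 to −37 and TATAAA at −31 to −26, counted from the start. In *Acta1* a CArG box lies at −73 to −64 and TATAAA at −7 to −2. *Trim63* holds AGAACA at −200 to −195, CAGCTG at −72 to −67 and TATAAA at −31 to −26. The *Alb* window has GTTAAT at −32 to −27, and that of *Pck1* has the same letters at −192 to −187 and CAGCTG at −67 to −62. Of 27025 genes with such a window, 11.7% hold TATAAA, 12.4% CAGCTG, 15.8% CAGGTG, 5.89% GTTAAT, 14.6% AGAACA, 2.69% the MEF2 motif and 1.32% the CArG box. These matches describe letters only, and since windows were at hand for 74.1% of the genes tested, shares were not compared between liver and muscle genes.

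Secreted plasma proteins were the most uniform liver group. All 38 genes of the list, from carriers and coagulation factors to complement and apolipoproteins, were higher in liver (background 40.6%), with a median log2 difference of 11.74 that was 13.79 without WT muscle replicate 2. *Alb*, the main carrier protein of plasma, was at 81979.8, 81702 and 112126 CPM in E47KO and 94669 and 87044 CPM in WT livers. The muscles were at 0.581, 0.769 and 6.95 CPM in E47KO and 1.1 and 127 CPM in WT muscles. The groups lay orders of magnitude apart in every library (log2 difference 13.37, SE 2.05, edgeR adjusted p = 9.64e-05). Without WT muscle replicate 2 the log2 difference of *Alb* was 15.36. *Serpina3k* (log2 difference 12.99, SE 1.88, edgeR adjusted p = 6.28e-05), *Apoe*, which directs the clearance of lipoprotein remnants (log2 difference 7.89, SE 0.42, edgeR adjusted p = 1.6e-08), and *Apoa1*, the main protein of high-density lipoprotein (log2 difference 12.67, SE 1.85, edgeR adjusted p = 6.58e-05), were the next most abundant of the list. The smallest differences of the group belonged to complement component *C3* at 6.29 and ceruloplasmin *Cp*, the copper carrier, at 7.2. Counts of *Serpina3k*, the *Serpina1* genes, *Mup20* and *Mug1* are uncertain in their split between members, because these genes belong to families of near-identical copies.

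The contractile apparatus was the mirror image. Of 32 sarcomere genes tested, 31 were higher in muscle (background 41.9%) and none in liver, with a median log2 difference of −11.32. *Myh4*, which encodes the fastest myosin heavy chain, was at 74957, 65150.3 and 80402 CPM in E47KO and 51593 and 99686 CPM in WT muscles. The livers were at 4.74, 0.65 and 1.16 CPM in E47KO and 1.19 and 2.57 CPM in WT livers. No liver came near any muscle (log2 difference −15.14, SE 1.00, edgeR adjusted p = 9.49e-08). *Acta1* (log2 difference −12.73, SE 0.74, edgeR adjusted p = 3.25e-08), the fast troponin T *Tnnt3* (log2 difference −13.79, SE 0.70, edgeR adjusted p = 1.05e-08) and the giant spring protein titin, *Ttn* (log2 difference −12.75, SE 0.63, edgeR adjusted p = 9.02e-09), differed to a like degree. *Tpm3*, a tropomyosin with forms outside muscle, was the member that was not called (55.5 ± 4.31 CPM in liver and 76.7 ± 45.8 CPM in muscle, log2 difference −0.47, SE 0.40, edgeR adjusted p = 0.294). *Tnnc2*, the fast troponin C, was listed below the count filter and was not tested; 74.0% of its exon bases are shared with *Ube2c*.

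The quadriceps was fast in its myosins, and its slow fibre genes varied between mice. Per kilobase of exon, *Myh4* averaged 12360.0 CPM in muscle, followed by *Myh1* (fast 2X) at 1264, *Myh2* (fast 2A) at 329 and *Myh7* (slow) at 22 CPM per kilobase. *Myh7* was at 279, 229 and 2.37 CPM in E47KO and 399.6 and 36.7 CPM in WT muscles, so its muscle level spanned a range far wider than that of *Myh4*. *Myh2* went the same way in part, with 3842, 3345 and 1169 CPM in E47KO and 2721 and 661 CPM in WT muscles. Both genes were lowest in E47KO muscle replicate 3 and WT muscle replicate 2, the muscles from mice with no liver library here. A difference between these sets of mice was not tested. The slow troponin genes *Tnni1*, *Tnnt1* and *Tnnc1* still exceeded liver with log2 differences of −7.33, −5.42 and −6.01, the smallest of the called sarcomere genes apart from the actin-severing protein gene *Cfl2* at −2.77.

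Calcium handling and excitation followed the sarcomere. Of 25 genes, 24 were higher in muscle and 1 was not called, with a median log2 difference of −10.02. *Atp2a1* (log2 difference −14.16, SE 0.64, edgeR adjusted p = 3.95e-09), the calcium release channel *Ryr1* (log2 difference −13.37, SE 0.66, edgeR adjusted p = 8.14e-09) and the calcium buffer parvalbumin, *Pvalb* (log2 difference −14.32, SE 0.77, edgeR adjusted p = 1.71e-08), were among the most abundant. For *Atp2a1*, 21.9% of exon bases are shared with another gene (*Rabep2*). The calcium pump *Atp2a2*, which is used by most cell types, was the member not called, at 303 ± 33.4 CPM in liver and 164 ± 109 CPM in muscle (log2 difference 0.89, SE 0.48, edgeR adjusted p = 0.11).

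**Figure D2:**
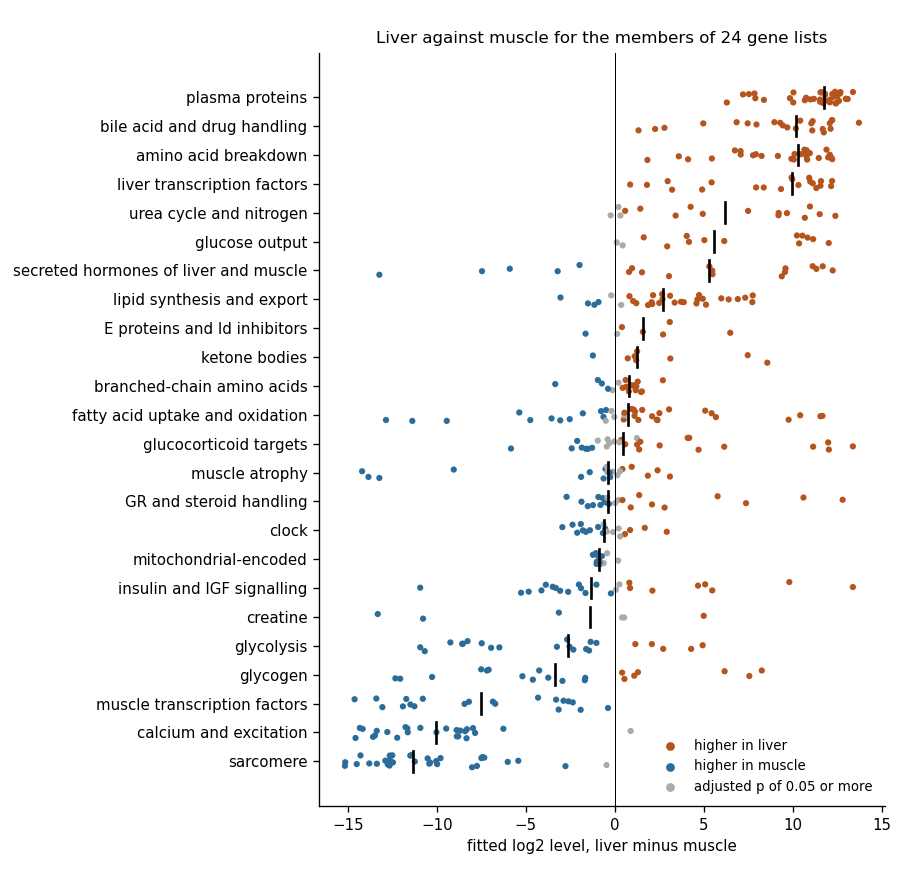
Fitted log2 difference (liver minus muscle, x axis) of each tested member of 24 gene lists (y axis), ordered by the list median, which is drawn as a black bar. Orange and blue points passed an adjusted p of 0.05 in edgeR and grey points did not. Plasma proteins (median 11.74) and the sarcomere (median −11.32) form the ends, and lists such as glucocorticoid targets (median 0.47) hold genes on both sides.

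Glucose was handled by different genes in the tissues. Of 14 genes for glucose output and hepatic sugar entry, 12 were higher in liver and none in muscle (median log2 difference 5.59). *Pck1*, which encodes the cytosolic enzyme that commits oxaloacetate to gluconeogenesis, was at 4588, 4354 and 5484 CPM in E47KO and 5068 and 6084 CPM in WT livers. Muscle values stood at 127, 112 and 156 CPM in E47KO and 8.2 and 47.3 CPM in WT muscles. All livers exceeded all muscles (log2 difference 6.14, SE 0.68, edgeR adjusted p = 7.4e-06), but the muscle levels spread widely. The lowest value was in WT muscle replicate 1, as it was for the adipokine gene *Adipoq*, at 46.6, 56.8 and 64.4 CPM in E47KO and 4.97 and 19.1 CPM in WT muscles, and *Pck1* reached 2393 to 3167 CPM in the 4 white adipose libraries of the same Dex experiment, as CPM of library totals without TMM. The summed adipocyte markers were lowest in both WT muscles, at 698 CPM in replicate 1 and 667 CPM in replicate 2. *Car3* was the largest part of that sum in every muscle. It gave 498 CPM of library totals in WT muscle replicate 1 and 393 CPM in WT muscle replicate 2. The part of fat in the muscle *Pck1* counts was not tested. *G6pc*, the catalytic subunit that frees glucose from glucose 6-phosphate, was at 95.5, 125 and 138 CPM in E47KO and 110.4 and 85.9 CPM in WT livers. In the muscles it was at 0.0242, 0 and 0 CPM in E47KO and 0 and 0.218 CPM in WT muscles (log2 difference 11.14, SE 0.48, edgeR adjusted p = 3.11e-09). Its counts in muscle were thus close to none outside WT muscle replicate 2, and without that library its log2 difference was 13.53. The gluconeogenic enzyme *Fbp1* was higher in liver by 10.54 on the log2 scale, and pyruvate carboxylase *Pcx*, which also refills the citric acid cycle elsewhere, by 2.94. The mitochondrial *Pck2* (3.71 ± 0.795 CPM in liver and 3.41 ± 0.427 CPM in muscle) and *Pfkfb1* (48.5 ± 13.8 CPM in liver and 35.4 ± 5.6 CPM in muscle), which sets the level of fructose 2,6-bisphosphate, were not called.

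Glycolysis and glycogen use leaned to muscle. Of 22 glycolytic genes, 17 were higher in muscle (background 41.9%) and 5 in liver (background 40.6%), with a median log2 difference of −2.61. Of 20 glycogen genes, 13 were higher in muscle and 7 in liver (median −3.34). *Slc2a4*, the insulin-responsive glucose transporter GLUT4, was at 491, 443 and 488 CPM in E47KO and 443 and 419 CPM in WT muscles. Liver values stood at 0.194, 0.51 and 0.276 CPM in E47KO and 0.0995 and 0.0597 CPM in WT livers. Muscle was above liver in every library (log2 difference −10.93, SE 0.31, edgeR adjusted p = 1.57e-10). *Aldoa*, *Gapdh*, *Eno3* and *Pfkm*, enzymes of the trunk of glycolysis, were higher in muscle by fitted log2 differences of −6.95, −2.68, −9.23 and −8.27. The enolase *Eno1* (2.72), the mutase *Pgam1* (4.29) and the aldolase *Aldoc* (4.93) went toward liver. Among glycogen genes, the muscle phosphorylase *Pygm* (1.53 against 7869 CPM in liver against muscle, log2 difference −12.32, SE 0.42, edgeR adjusted p = 5.54e-10), the phosphorylase kinase subunit *Phka1* (−7.18) and *Ugp2*, which makes UDP-glucose (−1.66), were higher in muscle. The liver phosphorylase *Pygl* (6.17), the liver glycogen synthase *Gys2* (8.25) and the phosphatase targeting subunit *Ppp1r3b* (7.55) were higher in liver.

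The liver and muscle forms of the same step were compared in 22 pairs. The pair of *Bdh1* and *Oxct1*, counted with the others, is an exception, since these genes encode enzymes of different steps. In 20 pairs the liver form was higher in liver and the muscle form was higher in muscle (edgeR, adjusted p). Per kilobase of exon, the muscle form supplied less than the liver form in every liver and more in every muscle in 17 pairs. For the glucose transporters, *Slc2a4* made up 0.158 ± 0.140% of the sum with *Slc2a2* in liver and 100.0 ± 0.0438% in muscle (SD, n = 5). Among the cytochrome oxidase pairs, *Cox6a2* and *Cox8b*, the heart and muscle forms, made up 0.0507 and 0.115% of their pairs in liver and 97.9 and 94.7% in muscle, while *Cox7a1* reached 71.8 ± 1.46%.

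**Figure D3:**
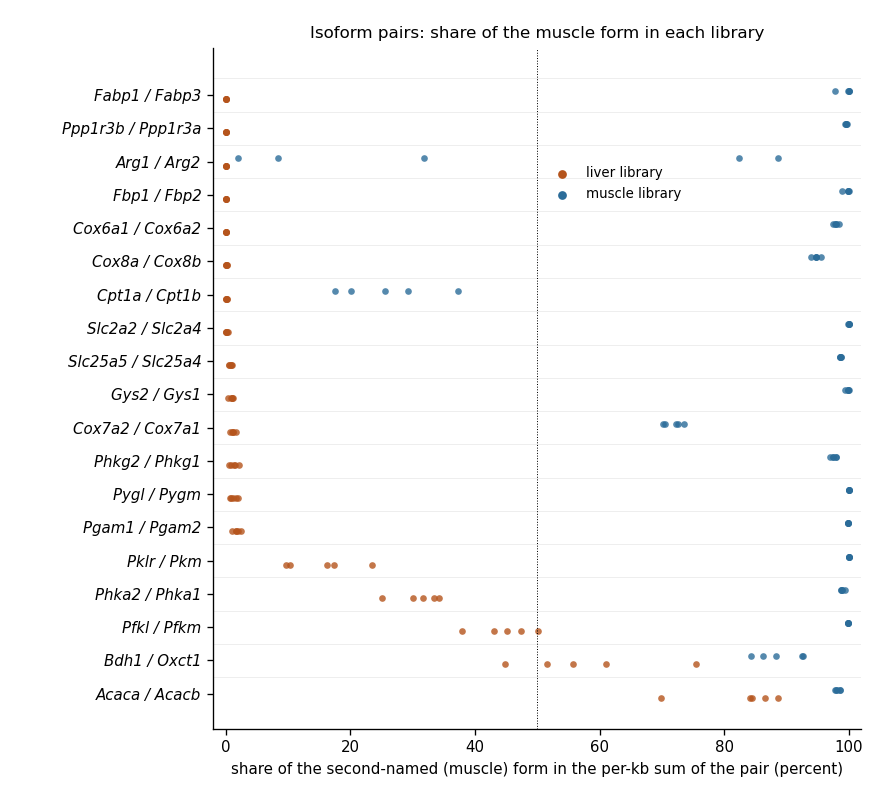
Share of the muscle form (second name) in the per-kilobase sum of each of 19 of the 22 isoform pairs, in percent (x axis), with 1 point per library (5 liver, 5 muscle) and a dotted line at equal shares. Most pairs sit near 0% in liver and near 100% in muscle. *Cpt1b* stays at 25.9 ± 7.80% in muscle, and *Acacb* is the larger form in both tissues.

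Some pairs did not change places. *Acacb*, the acetyl-CoA carboxylase linked to the control of fatty acid oxidation, was the larger form in both tissues, with 82.7 ± 7.44% in liver and 98.1 ± 0.361% in muscle, and *Acaca*, the form linked to fatty acid synthesis, was not called (27.7 ± 7.83 CPM in liver and 22 ± 5.33 CPM in muscle, log2 difference 0.36, SE 0.21, edgeR adjusted p = 0.134). Phosphofructokinase *Pfkm* supplied 44.7 ± 4.65% of its pair in liver. Other pairs changed places from a larger share in liver, with the kinase subunit *Phka1* at 30.9 ± 3.59% and pyruvate kinase *Pkm* at 15.5 ± 5.65% there. *Oxct1*, which lets a tissue burn ketone bodies, made up 57.7 ± 11.6% of its sum with the ketone body dehydrogenase *Bdh1* in liver and 88.8 ± 3.77% in muscle. *Cpt1b*, the muscle carnitine palmitoyltransferase, averaged only 2.28 CPM in muscle (log2 difference −3.06, SE 0.27, edgeR adjusted p = 1.02e-06) and 25.9 ± 7.80% of its pair. For *Cpt1b*, 81.4% of the exon bases are shared with the read-through gene *Gm44502*, so this count is uncertain. The arginase *Arg2* was under the count filter and was not tested.

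Nitrogen disposal separated the tissues step by step. Of 16 genes of the urea cycle and nitrogen transfer, 13 were higher in liver and none in muscle (median log2 difference 6.21). *Cps1*, which makes carbamoyl phosphate from ammonia at the entry of the cycle, was at 6629, 5684 and 5559 CPM in E47KO and 5912 and 6272 CPM in WT livers. The muscle libraries held 0.0242, 0 and 0.76 CPM in E47KO and 0.0215 and 20.3 CPM in WT muscles (log2 difference 12.39, SE 2.13, edgeR adjusted p = 0.000243). *Ass1* (9.20) and *Arg1* (11.51), later steps of the cycle, were likewise higher in liver. The aminotransferases *Got1* (292 ± 115 CPM in liver and 338 ± 29.3 CPM in muscle) and *Got2* (510.1 ± 17.5 CPM in liver and 444 ± 35.6 CPM in muscle) and ornithine aminotransferase *Oat* (488 ± 184 CPM in liver and 381 ± 52.9 CPM in muscle), used by both tissues to move amino groups, were not called. Glutamine synthetase *Glul*, a glucocorticoid target in muscle, was at 1254 ± 139.9 CPM in liver and 465 ± 94.8 CPM in muscle (log2 difference 1.43, SE 0.19, edgeR adjusted p = 2.75e-05), and the alanine aminotransferase *Gpt2* differed by only 0.58 on the log2 scale.

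Amino acid breakdown leaned to liver. All 28 genes of the breakdown list were higher in liver (median log2 difference 10.27, 11.77 without WT muscle replicate 2), led by *Mat1a* (11.89) and *Bhmt* (12.21) of the methionine cycle, tryptophan dioxygenase *Tdo2* (12.07) and tyrosine aminotransferase *Tat* (11.98). The smallest differences were for proline breakdown, *Aldh4a1* (1.83) and *Prodh* (3.59). Of 20 genes of branched-chain amino acid breakdown, 14 were higher in liver, 4 in muscle and 2 were not called, and the median log2 difference was 0.82. Those higher in muscle were the first transaminase *Bcat2* (21.9 ± 4.63 CPM in liver and 36.4 ± 4.25 CPM in muscle, log2 difference −0.73, SE 0.12, edgeR adjusted p = 0.00022), the shared dehydrogenase subunit *Dld* (−0.95), *Acadsb* (−0.38) and *Bckdk*. *Bckdk*, the kinase that switches the branched-chain dehydrogenase off, was at 144, 148 and 142 CPM in E47KO and 129.8 and 142 CPM in WT muscles. Liver levels were 12.9, 14.4 and 14.9 CPM in E47KO and 12.5 and 14.6 CPM in WT livers. Its phosphatase partner *Ppm1k*, which switches the complex on, went the other way, at 63, 88.3 and 84 CPM in E47KO and 76.7 and 68.8 CPM in WT livers. Muscle counts came to 14.9, 15 and 10.1 CPM in E47KO and 10.9 and 8.44 CPM in WT muscles. The kinase was thus about 10.2-fold higher in muscle (log2 difference −3.35, SE 0.08, edgeR adjusted p = 7.52e-11) and the phosphatase higher in liver (log2 difference 2.70, SE 0.16, edgeR adjusted p = 3.23e-08), with no overlap of tissues for either. The dehydrogenase subunits *Bckdha* (1.17), *Bckdhb* (1.48) and *Dbt* (1.52) were higher in liver, where 61.7% of the exon bases of *Bckdha* are shared with *B3gnt8*.

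Fatty acid uptake and oxidation was split between the tissues. Of 36 genes, 20 were higher in liver (background 40.6%), 12 in muscle (background 41.9%) and 4 were not called (median log2 difference 0.73). *Ucp3*, a mitochondrial carrier of muscle, was at 549.6, 396 and 533 CPM in E47KO and 415 and 521 CPM in WT muscles, against 6 counts in all 5 livers together (ratio of means 7821, 95% counting interval 3593 to 21312). *Fabp3*, the heart and muscle fatty acid binding protein (log2 difference −11.37, SE 0.45, edgeR adjusted p = 1.54e-09), lipoprotein lipase *Lpl* (−5.37) and the fatty acid transporter *Cd36* (−2.53) were also higher in muscle. *Fabp4* (−4.75), an adipocyte and endothelial gene that is itself in the adipocyte marker list, was also higher in muscle. The liver side held *Fabp1* (11.55), the transporters *Slc27a2* (11.66) and *Slc27a5* (10.41), the peroxisomal *Ehhadh* (5.44), and *Cpt1a* (log2 difference 5.07, SE 0.16, edgeR adjusted p = 3.08e-10). The mitochondrial trifunctional protein was close to level, with *Hadha* not called at 437 ± 47 CPM in liver and 446 ± 76.2 CPM in muscle and *Hadhb* at −0.49 on the log2 scale. Of the coactivators, *Ppargc1a* was not called (52.9 ± 8.64 CPM in liver and 75.3 ± 31.1 CPM in muscle) and neither was *Ppargc1b*, while their partners *Ppara* (2.50) and *Ppard* (−1.80) lay on opposite sides.

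Ketone body genes leaned to liver. Of 8 ketone body genes, 7 were higher in liver and *Oxct1* alone was higher in muscle (95.2 ± 44.8 CPM in liver and 221 ± 54.3 CPM in muscle, log2 difference −1.23, SE 0.30, edgeR adjusted p = 0.00265), a call that was lost with WT libraries alone (log2 difference −0.72). For lipid synthesis and export, 25 of 31 genes were higher in liver (background 40.6%), 4 in muscle (background 41.9%) and 2 not called. Their median log2 difference was 2.68. The desaturase *Fads2* (7.74), the lipoprotein assembly factor *Mttp* (6.39), *Insig2*, which restrains sterol synthesis (log2 difference 4.58, SE 0.21, edgeR adjusted p = 4.14e-09), and the phosphatidate phosphatase *Lpin2* (7.32) were on the liver side. Its relative *Lpin1*, also a glucocorticoid target, was higher in muscle (456 ± 239.6 CPM in liver and 1246 ± 224 CPM in muscle, log2 difference −1.51, SE 0.50, edgeR adjusted p = 0.0155), as were *Acacb* (−3.05), malic enzyme *Me1* (−1.15) and the lipogenic regulator *Srebf1* (−0.92). *Scd1*, a desaturase also abundant in fat, was at 629, 1307 and 1142 CPM in E47KO and 988 and 1623 CPM in WT livers. The muscles were at 207, 794 and 478 CPM in E47KO and 85 and 119 CPM in WT muscles. The tissues overlapped and the muscles spread more than the livers (log2 difference 2.07, SE 0.58, edgeR adjusted p = 0.0065). The WT muscles were lowest here too, as for the summed adipocyte markers, which were mostly *Car3* in those muscles. The part of fat in the *Scd1* counts was not tested. With E47KO libraries alone the log2 difference was 1.04 and the call was lost (edgeR adjusted p = 0.0725).

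Bile acid and drug handling was a liver group without exception. All 23 genes were higher in liver, with a median log2 difference of 10.17 that was 11.34 without WT muscle replicate 2. The drug-metabolising *Cyp3a11*, a target of several nuclear receptors, was at 6297, 8207 and 9143 CPM in E47KO and 6728 and 13835 CPM in WT livers. Muscle values stood at 0, 0 and 0.586 CPM in E47KO and 0.086 and 6.21 CPM in WT muscles (log2 difference 13.71, SE 1.79, edgeR adjusted p = 2.74e-05). *Cyp2c29* (12.19) and the uptake transporter *Slco1b2* (12.12) reached similar differences, as did *Cyp7a1*, the rate-limiting enzyme of bile acid synthesis (127 ± 35.6 CPM in liver and 0.0567 ± 0.0947 CPM in muscle, log2 difference 11.09, SE 0.52, edgeR adjusted p = 5.29e-09). *Cyp2e1* was higher in liver by 7.46 only. Its muscle level was again lowest in WT muscle replicate 1, at 127, 38.6 and 88.1 CPM in E47KO and 6.97 and 57.8 CPM in WT muscles, and *Cyp2e1* was at 4693 to 9002 CPM of library totals in white adipose tissue; the part of fat was not tested. In the creatine system, the liver enzyme *Gamt*, which completes creatine synthesis, was higher in liver (log2 difference 4.99, SE 0.50, edgeR adjusted p = 2.88e-06), and the transporter *Slc6a8* (−3.14) and the kinases *Ckm* (−13.31) and *Ckmt2* (−10.77) were higher in muscle. *Gatm* (4.1 ± 2.39 CPM in liver and 3.1 ± 0.893 CPM in muscle) and *Ckb* (2.72 ± 1.18 CPM in liver and 1.87 ± 0.495 CPM in muscle) were not called.

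The transcription factors that specify each tissue kept to it. All 20 liver factors were higher in liver, with a median log2 difference of 9.95, or 8.85 when 2 genes at 0 in all muscles were set at the bound that 3 counts per library give. All 20 muscle factors were higher in muscle, with a median of −7.52, or −5.93 with 5 genes at 0 in all livers at their bound. *Hnf4a*, a nuclear receptor at the top of the hepatocyte network, was at 1018, 897 and 752 CPM in E47KO and 949 and 1002 CPM in WT livers. In the muscles it was at 0, 0 and 0.109 CPM in E47KO and 0.0215 and 2.3 CPM in WT muscles (log2 difference 11.58, SE 1.24, edgeR adjusted p = 5.39e-06). *Creb3l3* (10.97) and *Cebpa* (5.44) followed, while *Rxra*, the common partner of many nuclear receptors, differed least, at 346 ± 51.9 CPM in liver and 190.2 ± 17.6 CPM in muscle (log2 difference 0.86, SE 0.11, edgeR adjusted p = 2.58e-05). *Mef2c*, which cooperates with the myogenic bHLH factors, was at 288, 377 and 276 CPM in E47KO and 324 and 428 CPM in WT muscles. The livers were at 3.73, 3.76 and 1.82 CPM in E47KO and 4.03 and 1.14 CPM in WT livers (log2 difference −6.85, SE 0.35, edgeR adjusted p = 1.16e-08). *Tbx15*, a T-box factor of fast fibres, averaged 264 CPM in muscle against 2 counts in the 5 livers together (ratio of means 12822, 95% counting interval 3549.5 to 105876). The methyltransferase *Smyd1* (−6.72) and *Mef2d* (−2.88) were higher in muscle too, and serum response factor *Srf*, which binds CArG boxes like those in *Acta1* and *Myh4* above, was close to level at 46 ± 9.08 CPM in liver and 59.6 ± 4.32 CPM in muscle (log2 difference −0.38, SE 0.11, edgeR adjusted p = 0.00922). *Myod1*, a muscle bHLH factor that pairs with E proteins, was at 10.8, 10.2 and 22.2 CPM in E47KO and 13.7 and 8.54 CPM in WT muscles and had 0 counts in every liver.

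The gene for E47 itself was expressed at similar, low levels in both tissues. *Tcf3* was at 15, 15.3 and 12.3 CPM in E47KO and 11.5 and 12.4 CPM in WT livers. The muscle libraries held 8.84, 10.8 and 11.6 CPM in E47KO and 8.65 and 10.4 CPM in WT muscles. The ranges overlapped, and liver was higher by a fitted 0.40 (log2, with SE 0.11 and an adjusted p of 0.0062 in edgeR), a call that was lost with WT libraries alone, without the count filter and with upper quartile scaling. Of the other E proteins, *Tcf4* was at 12.8, 12.4 and 10.5 CPM in E47KO and 13 and 10.3 CPM in WT livers. Muscle counts came to 41.9, 38.8 and 34.4 CPM in E47KO and 35.5 and 33.8 CPM in WT muscles, with muscle higher in every library (log2 difference −1.64, SE 0.10, edgeR adjusted p = 4.13e-08). *Tcf12* was not called, at 33.9 ± 4.43 CPM in liver and 31 ± 1.83 CPM in muscle (log2 difference 0.13, SE 0.10, edgeR adjusted p = 0.227). Per kilobase of exon, the liver levels were 3.29 CPM for *Tcf3*, 0.43 for *Tcf4* and 2.18 for *Tcf12*, and the muscle levels 2.49, 1.35 and 1.99.

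Id proteins, which pair with E proteins and keep them off DNA, were all higher in liver. *Id2* was at 120.1, 139 and 277 CPM in E47KO and 117 and 96.4 CPM in WT livers. Muscle levels were 1.38, 2.11 and 1.63 CPM in E47KO and 1.44 and 1.58 CPM in WT muscles, which is a gap in every library (log2 difference 6.48, SE 0.29, edgeR adjusted p = 3.91e-09). *Id3* was at 43.5, 57.7 and 79 CPM in E47KO and 45.1 and 47.3 CPM in WT livers. The muscles were at 6.25, 5.98 and 7.49 CPM in E47KO and 5.92 and 6.21 CPM in WT muscles (log2 difference 3.09, SE 0.16, edgeR adjusted p = 1.16e-08). *Id1* (16.7 ± 2.78 CPM in liver and 5.57 ± 1.28 CPM in muscle, log2 difference 1.58, SE 0.17, edgeR adjusted p = 5.6e-06) and *Id4* (1.56 ± 0.977 CPM in liver and 0.237 ± 0.078 CPM in muscle, log2 difference 2.71, SE 0.48, edgeR adjusted p = 0.000324) were also higher in liver, *Id4* at low levels. Of the 7 genes of the E protein and Id list, 5 were higher in liver, 1 in muscle and 1 was not called.

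The receptor for Dex was more abundant in muscle. *Nr3c1*, which encodes GR, was at 87.5, 84.3 and 80.3 CPM in E47KO and 81.1 and 89.8 CPM in WT livers. Muscle values stood at 127, 109 and 105 CPM in E47KO and 115 and 126 CPM in WT muscles. Every muscle was above every liver, with a log2 value of −0.46 (liver minus muscle, SE 0.08 and an adjusted p of 0.000246 in edgeR), which is less than the median size of all differences. Of 24 genes of GR and steroid handling, 9 were higher in liver (background 40.6%), 12 in muscle (background 41.9%) and 3 were not called. Their median log2 difference was −0.36. The muscle side held the coactivators *Ncoa1* (−0.68), *Ncoa3* (−0.57), *Crebbp* (−0.81) and *Ep300* (−0.53), the corepressor *Nrip1* (−1.52), the mineralocorticoid receptor *Nr3c2* (−1.23), the chaperone *Hsp90ab1* (−0.92) and the forkhead factor *Foxo4* (−2.71). The liver side held the chaperone *Hsp90aa1* (2.09) and the coactivator *Ncoa2* (0.89), known as GRIP1. *Ncor1* (143 ± 6.75 CPM in liver and 141 ± 25.6 CPM in muscle), *Ptges3* (79.1 ± 10.3 CPM in liver and 69.5 ± 9.25 CPM in muscle) and *Foxo1* (79.4 ± 35.4 CPM in liver and 105 ± 30.2 CPM in muscle) were not called. The Mediator subunit *Med1* (−0.40, adjusted p = 0.0409 in edgeR) and the cochaperone *Fkbp4* (−0.33, adjusted p = 0.0287) were higher in muscle by small margins. The call for *Fkbp4* was lost without E47KO liver replicate 1, E47KO liver replicate 2 or WT liver replicate 1 (log2 difference −0.30 to −0.25), and that for *Med1* without E47KO liver replicate 1 or 3, WT liver replicate 2, E47KO muscle replicate 1 or WT muscle replicate 1 (−0.39 to −0.31) and with the 3 shared mice as a block (−0.32).

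Genes that supply, bind or inactivate steroids were far higher in liver. *Hsd11b1*, which regenerates active corticosterone inside cells, was at 465, 550.7 and 742 CPM in E47KO and 572 and 399.8 CPM in WT livers. In the muscles it was at 12.7, 12.8 and 21.7 CPM in E47KO and 3.33 and 6.43 CPM in WT muscles (log2 difference 5.77, SE 0.39, edgeR adjusted p = 1.03e-07). *H6pd*, which supplies its cofactor, was at 529 ± 79.1 CPM in liver and 76.3 ± 9.06 CPM in muscle (log2 difference 2.79, SE 0.14, edgeR adjusted p = 1.15e-08). The steroid reductases *Akr1d1* (188 ± 39.4 CPM in liver and 0.0243 ± 0.042 CPM in muscle, log2 difference 12.79, SE 0.42, edgeR adjusted p = 4.04e-10) and *Srd5a1* (log2 difference 7.37, SE 0.34, edgeR adjusted p = 4.56e-09) were also higher in liver. *Serpina6*, which encodes the plasma carrier of corticosteroids, was at 9.24, 70.3 and 27.6 CPM in E47KO and 23.2 and 5.62 CPM in WT livers, against 3 counts in all 5 muscles together (ratio of means 2011, 95% counting interval 688 to 9753).

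**Figure D4:**
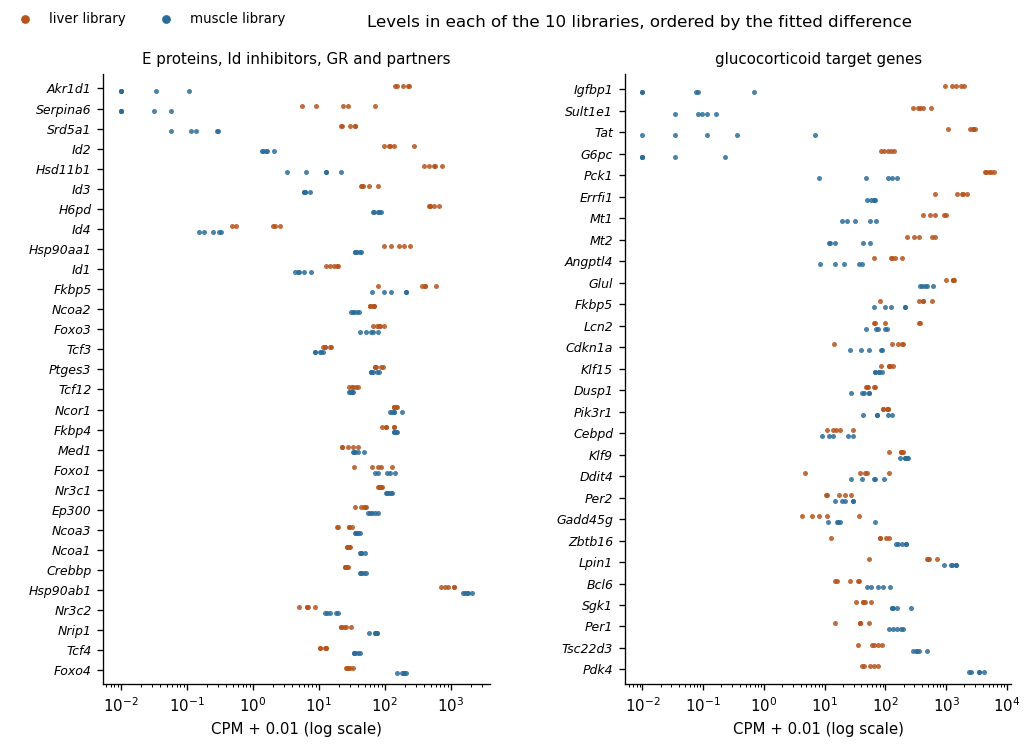
Level of each gene in each of the 10 libraries (x axis, CPM + 0.01, log scale) for E proteins, Id inhibitors, GR and its partners (left) and for glucocorticoid target genes (right), ordered from the most liver-high to the most muscle-high fitted difference. Orange points are liver and blue points muscle libraries. *Nr3c1* is close between tissues, *Id2* and *Hsd11b1* lie well to the right in liver, and *Pdk4* lies to the right in muscle. A single low liver point (E47KO liver replicate 3) recurs for *Fkbp5*, *Cdkn1a*, *Zbtb16* and *Lpin1*.

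Genes known as glucocorticoid targets did not move as a group between the tissues. Of 28, 14 were higher in liver (background 40.6%), 7 in muscle (background 41.9%) and 7 were not called. Their median log2 difference was 0.47 against −0.03 over all genes. Those at the liver end encode liver functions: *Igfbp1*, a secreted binding protein of insulin-like growth factors (1484 ± 406 CPM in liver and 0.163 ± 0.29 CPM in muscle, log2 difference 13.37, SE 0.99, edgeR adjusted p = 2.38e-07), the estrogen sulfotransferase *Sult1e1* (12.02), *Tat* (11.98), *G6pc* and *Pck1*. The feedback regulator *Errfi1* (log2 difference 4.70, SE 0.31, edgeR adjusted p = 9.14e-08), the metal buffers *Mt1* (4.18) and *Mt2* (4.09) and the lipase inhibitor *Angptl4* (2.52) were higher in liver by smaller margins. For *Mt2*, 73.5% of the exon bases are shared with another gene (*Gm45774*).

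The muscle end was led by *Pdk4*, the kinase that shuts pyruvate out of the citric acid cycle. *Pdk4* was at 4182, 2342 and 3529 CPM in E47KO and 2529 and 3443 CPM in WT muscles. Liver values stood at 74.4, 41.8 and 64 CPM in E47KO and 45.1 and 56.5 CPM in WT livers, with muscle higher throughout (log2 difference −5.83, SE 0.30, edgeR adjusted p = 1.15e-08). *Tsc22d3*, which encodes the anti-inflammatory protein GILZ, was at 282, 335 and 319 CPM in E47KO and 360.3 and 481 CPM in WT muscles. In the livers it was at 65.7, 89.4 and 36 CPM in E47KO and 76.1 and 60.9 CPM in WT livers (log2 difference −2.42, SE 0.23, edgeR adjusted p = 1.69e-06). Both tissues thus held it at readily counted levels, with every muscle higher. *Per1* (36.6 ± 14 CPM in liver and 156 ± 34 CPM in muscle, log2 difference −2.11, SE 0.27, edgeR adjusted p = 2.28e-05), *Sgk1*, a kinase that acts on ion transport (44.5 ± 8.82 CPM in liver and 163 ± 59.3 CPM in muscle, log2 difference −1.86, SE 0.19, edgeR adjusted p = 3.55e-06), the repressor *Bcl6* (−1.62), *Lpin1* (−1.51) and *Zbtb16* (log2 difference −1.28, SE 0.44, edgeR adjusted p = 0.019) completed the muscle side. *Klf9* (171 ± 31.6 CPM in liver and 211 ± 22.9 CPM in muscle), *Per2*, *Ddit4*, *Cebpd*, *Gadd45g*, *Pik3r1* and *Cdkn1a* were not called. In the fit with the 3 mice that gave both tissues as a block, *Gadd45g* (log2 difference −0.85, edgeR adjusted p = 0.00666) and *Per2* (log2 difference −0.45, edgeR adjusted p = 0.0233) were called for muscle and *Cdkn1a* (log2 difference 1.66, edgeR adjusted p = 0.000781) for liver. *Gadd45g* (edgeR adjusted p = 0.00246) and *Per2* (0.0267) were also called for muscle with replicate number as a block. DESeq2 called *Klf9* (adjusted p = 0.0309) and *Gadd45g* (adjusted p = 0.0455) for muscle.

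*Fkbp5*, the GR cochaperone that is itself induced by GR, depended on single libraries. It was at 411, 362 and 80 CPM in E47KO and 408 and 595 CPM in WT livers. The muscle libraries held 207, 63.8 and 208 CPM in E47KO and 124 and 97.3 CPM in WT muscles. The tissues overlapped through E47KO liver replicate 3 (log2 difference 1.37, SE 0.49, edgeR adjusted p = 0.0235), and the call was lost without E47KO liver replicate 1 (log2 difference 1.27), WT muscle replicate 1 (1.24) or WT muscle replicate 2 (1.16), with E47KO libraries alone (0.84) and with replicate number as a block (1.39). E47KO liver replicate 3 was the lowest of the 5 livers in 19 of the 28 target genes and lay below 50% of the liver median in 9 of them. The same counts over all genes tested were not made, so this is not shown to be particular to target genes. *Cdkn1a*, a cell cycle inhibitor, was at 198, 158 and 14 CPM in E47KO and 130.0 and 187 CPM in WT livers, and *Lpin1* at 492, 502 and 54.6 CPM in E47KO and 531 and 699.9 CPM in WT livers. Without E47KO liver replicate 3 the count of target genes was 13 in liver and 7 in muscle with a median of 0.47; *Cdkn1a* was then called for liver (edgeR adjusted p = 0.00115), and *Dusp1*, a phosphatase that restrains MAP kinases, and *Lcn2*, an acute phase protein, were no longer called. The call for *Dusp1* (log2 difference 0.36, SE 0.15, edgeR adjusted p = 0.0454) was lost on leaving out any library but E47KO muscle replicate 3 (0.24 to 0.38), and that for *Lcn2* (log2 difference 1.25, SE 0.52, edgeR adjusted p = 0.0437) on leaving out any of 6 libraries, both WT muscles and WT liver replicate 2 among them (0.57 to 1.30). With the 3 mice that gave both tissues as a block the log2 difference of *Lcn2* was 0.04 (edgeR adjusted p = 0.823), and its call was also lost with either genotype alone, with replicate number as a block (0.87), with limma-voom (0.88), with DESeq2, with library totals and with upper quartile scaling. WT liver replicate 2 was the highest liver for 18 of the 28 and E47KO muscle replicate 2 the lowest muscle for 18. These counts also lack a background over all genes tested. Without WT muscle replicate 2, 11 targets were higher in liver and 8 in muscle.

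Genes of muscle wasting, a known effect of glucocorticoids, lay on both sides. Of 20, 10 were higher in muscle (background 41.9%), 5 in liver and 5 were not called (median log2 difference −0.36). *Trim63*, whose start region is shown above, encodes the ubiquitin ligase MuRF1 and was at 2184, 1218 and 2407 CPM in E47KO and 2148 and 1942 CPM in WT muscles. Liver levels were 0.145, 0.232 and 0 CPM in E47KO and 0 and 0.119 CPM in WT livers (log2 difference −14.19, SE 0.63, edgeR adjusted p = 3.58e-09). *Fbxo32*, the ligase atrogin-1, was at 2563, 1502 and 2272 CPM in E47KO and 2362 and 2427 CPM in WT muscles. The livers were at 3.87, 4.41 and 4.59 CPM in E47KO and 4.77 and 3.35 CPM in WT livers (log2 difference −9.05, SE 0.28, edgeR adjusted p = 3.21e-10). Both ligases were thus muscle genes with no overlap. The autophagy gene *Gabarapl1* (log2 difference 3.10, SE 0.21, edgeR adjusted p = 1.03e-07) and the lysosomal protease *Ctsl* (log2 difference 2.4, SE 0.18, edgeR adjusted p = 3.1e-07) were instead higher in liver, with *Fbxo21* (1.85); 28.3% of the exon bases of *Gabarapl1* and 26.9% of those of *Ctsl* overlap another gene. *Foxo3*, an activator of the ligase genes, was at 81.4 ± 11.6 CPM in liver and 60.5 ± 13.6 CPM in muscle (log2 difference 0.43, SE 0.16, edgeR adjusted p = 0.0311), a call that was lost without E47KO liver replicate 1 or 2, WT liver replicate 1, E47KO muscle replicate 2 or either WT muscle (0.31 to 0.43). The related *Foxo1* was not called. *Mstn*, myostatin, a secreted brake on muscle growth, was at 25.9, 25.9 and 42.7 CPM in E47KO and 40.4 and 54 CPM in WT muscles and had 0 counts in every liver. The floor of 3 counts puts it at least 243-fold higher in muscle.

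Genes of insulin and growth factor signalling lay on both sides. Of 24, 8 were higher in liver (background 40.6%), 14 in muscle (background 41.9%) and 2 were not called (median log2 difference −1.34). The insulin receptor *Insr* was not called, with 151, 154 and 148 CPM in E47KO and 149.9 and 143 CPM in WT livers. Muscle counts came to 192, 119 and 122 CPM in E47KO and 153 and 126 CPM in WT muscles. The receptor substrates *Irs1* (10.4 ± 2.0 CPM in liver and 32.6 ± 5.9 CPM in muscle, log2 difference −1.65, SE 0.14, edgeR adjusted p = 7.14e-07) and *Irs2* (19.6 ± 12.3 CPM in liver and 114 ± 41 CPM in muscle, log2 difference −2.62, SE 0.37, edgeR adjusted p = 4.85e-05), the kinase *Akt2* (−1.90) and the vesicle regulators *Tbc1d4* (−5.27) and *Tbc1d1* (−4.84), which hold GLUT4 inside the cell, were higher in muscle. *Igf1*, the circulating growth factor, was at 487, 497 and 511 CPM in E47KO and 428 and 409 CPM in WT livers. Muscle levels were 9.06, 8.67 and 11.8 CPM in E47KO and 6.0 and 17.1 CPM in WT muscles (log2 difference 5.47, SE 0.29, edgeR adjusted p = 1.36e-08). Its receptor *Igf1r* was higher in muscle (0.808 ± 0.22 CPM in liver and 6.88 ± 2.92 CPM in muscle, log2 difference −3.07, SE 0.33, edgeR adjusted p = 5.75e-06). The binding proteins divided, with *Igfbp1* (13.37), *Igfbp2* (9.80) and *Igfbp4* (5.07) higher in liver and *Igfbp3* (−2.02), *Igfbp5* (−3.88) and *Igfbp6* (−3.49) higher in muscle.

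Secreted hormones were mainly products of liver. Of 19 tested, 14 were higher in liver and 5 in muscle (median log2 difference 5.31). *Selenop*, the selenium carrier (log2 difference 5.31, SE 0.26, edgeR adjusted p = 9.15e-09), angiotensinogen *Agt* (5.49) and hepcidin, *Hamp*, which limits iron release (581 ± 190.0 CPM in liver and 0.27 ± 0.569 CPM in muscle, 11.32 on the log2 scale), were among the most abundant. The metabolic hormone *Fgf21* was at 17.5, 4.78 and 14.2 CPM in E47KO and 16.2 and 12.9 CPM in WT livers, against 0.0242, 0 and 0 CPM in E47KO and 0.043 and 0 CPM in WT muscles (log2 difference 9.56, SE 0.58, edgeR adjusted p = 4.93e-08). *Mstn*, *Fndc5* (the irisin precursor, 0.217 ± 0.173 CPM in liver and 40.4 ± 12.6 CPM in muscle, log2 difference −7.46, SE 0.39, edgeR adjusted p = 1.47e-08), *Ostn*, *Il15* (−3.21) and *Enho* (−1.98) gave the muscle side. *Ostn*, which encodes a muscle peptide, averaged 1.44 CPM in muscle.

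Clock genes lay on both sides. Of 19, 4 were higher in liver (background 40.6%), 10 in muscle (background 41.9%) and 5 were not called (median log2 difference −0.64). *Tef* (−1.63) and *Per3* (−2.37) were higher in muscle, and *Hlf* (2.92), *Clock* (1.68) and *Npas2* (log2 difference 0.86, SE 0.33, edgeR adjusted p = 0.0318) in liver. The call for *Npas2* was lost without E47KO liver replicate 1, WT liver replicate 2, E47KO muscle replicate 2 or 3 or either WT muscle. It was also lost with either genotype alone, without the genotype term and with upper quartile scaling. *Dbp*, an output gene with a strong daily rhythm, was at 1.35, 7.7 and 3.59 CPM in E47KO and 14.9 and 12.5 CPM in WT livers. The muscles were at 3.56, 8.73 and 3.67 CPM in E47KO and 6.78 and 7.23 CPM in WT muscles, so that both tissues spanned wide ranges and the gene was not called.

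Mitochondrial transcripts were a larger share of muscle. Genes of the mitochondrial genome took 9.55 ± 1.22% of gene counts in muscle and 5.38 ± 0.38% in liver (SD, n = 5, exact permutation test, two-sided, p = 0.00794, adjusted over 5 measures 0.00992). Of the 13 protein-coding genes, 10 were higher in muscle and 3 were not called (median log2 difference −0.88). *mt-Cytb* of complex III (log2 difference −1.06, SE 0.29, edgeR adjusted p = 0.00563) and *mt-Nd5* of complex I (log2 difference −1.02, SE 0.26, edgeR adjusted p = 0.00402) were higher in muscle. *mt-Co1* of cytochrome oxidase was not called by edgeR (20969.9 ± 1432 CPM in liver and 32327 ± 4134 CPM in muscle, log2 difference −0.62, SE 0.35, edgeR adjusted p = 0.12). DESeq2 (adjusted p = 8.95e-10) and limma-voom (adjusted p = 6.14e-05) did call *mt-Co1* for muscle. So did edgeR without the count filter and with upper quartile scaling. The range was led by E47KO muscle replicate 2 at 11.7%, above 8.70 to 9.34% in the other muscles.

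Markers of other cell types also differed between the tissues. Among 10 adipocyte markers, 8 were higher in muscle, 2 were not called and none was higher in liver, and their summed level was 667 to 1590 CPM in muscle against 112 to 578 CPM in liver and 69041 to 70602 CPM in white adipose tissue. *Car3* alone gave 393 to 985 CPM of the muscle sums, as CPM of library totals. *Adipoq* was at 0 in 4 of 5 livers. Summed endothelial markers were at 93.7 CPM in E47KO liver replicate 3 and 94.9 CPM in WT liver replicate 2, the livers from mice with no muscle library. The sums of endothelial markers in the other 3 livers, 264 to 277 CPM, met the muscle range of 264 to 382.1 CPM. Of 10 such markers 6 were higher in muscle, whereas *Clec4g* of the liver sinusoids was higher in liver (log2 difference 9.25, SE 0.57, edgeR adjusted p = 5.29e-08) and *Stab2*, another sinusoidal gene, was not called (53.6 ± 20.9 CPM in liver and 47.7 ± 8.08 CPM in muscle). Macrophage markers were higher in liver in 9 of 10, among them the Kupffer cell lectin *Clec4f* (39.1 ± 7.3 CPM in liver and 0.0291 ± 0.0651 CPM in muscle, log2 difference 10.30, SE 0.47, edgeR adjusted p = 4.34e-09), and *Lyz2* was higher in muscle (−0.71). All 6 smooth muscle and all 6 Schwann cell markers were higher in muscle. Of 4 satellite cell genes tested, 3 were higher in muscle and 1 in liver. *Pax7* averaged 1.94 CPM in muscle and had 0 counts in every liver. The sum of the satellite cell list was instead higher in liver, at 442 to 733 CPM against 60.3 to 86.8 CPM, through *Sdc4*. Of 10 fibroblast and stellate markers, 6 were higher in muscle and 3 in liver. *Des*, also a member of the sarcomere list, gave 3547 to 4701 CPM of their muscle sums of 3903 to 5072 CPM. Of the haemoglobin genes none was called, and the erythroid list reached 167 to 353 CPM in liver and 89.5 to 244 CPM in muscle. B and T cell markers were few, with 2 of 8 and 1 of 8 genes above the count filter. The part of these other cells in the tissue differences was not tested.

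**Figure D5:**
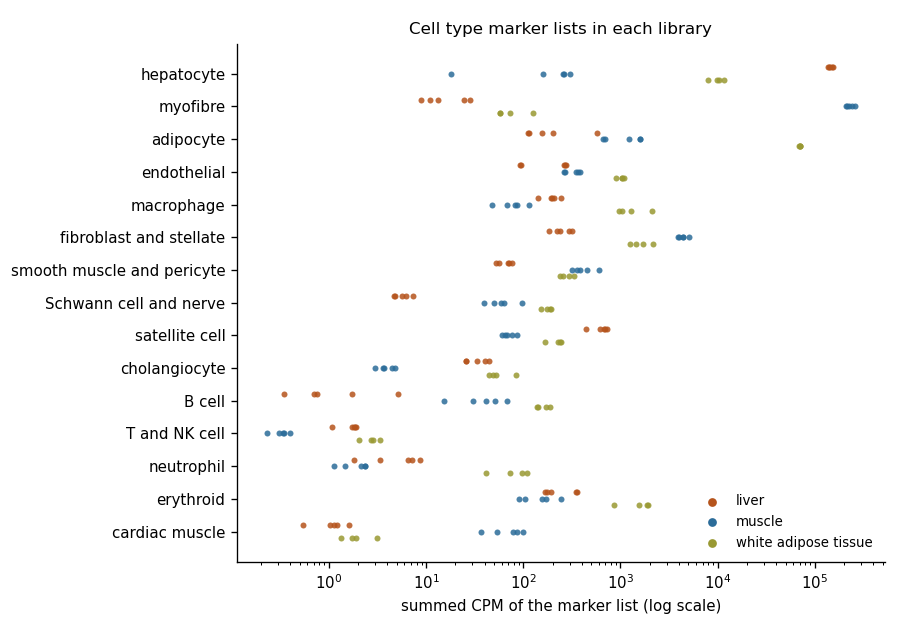
Summed CPM of library totals, without TMM, of 15 lists of cell type markers (y axis) in each library (x axis, log scale), for 5 liver, 5 muscle and, for reference, 4 white adipose libraries of the same Dex experiment. Hepatocyte and myofibre markers separate liver from muscle by orders of magnitude. Summed adipocyte markers are higher in muscle (667 to 1590 CPM) than in liver (112 to 578 CPM) and far below white adipose tissue. *Car3* is the largest part of the adipocyte sum in muscle. The satellite cell sum is higher in liver through *Sdc4*, and *Des* makes up most of the fibroblast and stellate sum in muscle.

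Some genes were counted in a single tissue. At 1 CPM or more in all 5 libraries of a tissue and at most 3 counts in each library of the other stood 224 liver genes and 409 muscle genes. The liver libraries were less deep, so 3 counts stand for a higher CPM in liver than in muscle. WT muscle replicate 2 also carried hepatocyte transcripts, and the numbers of the tissues are therefore not comparable. Among these single-tissue genes above 100 CPM on average, the muscle genes *Asb11* (a ubiquitin ligase adaptor), *Klhl40* (which stabilises thin filaments), *Ip6k3* (an inositol phosphate kinase) and *Igfn1* had 0 counts in every liver and were at least 1393-, 802-, 678- and 643-fold higher in muscle. *Mylk2*, the skeletal myosin light chain kinase, averaged 3771 CPM in muscle against 7 counts in the 5 livers together (ratio of means 52334, 95% counting interval 25400.1 to 130167). On the liver side, *Obp2a*, a lipocalin, averaged 396 CPM against 1 count in all muscles, the carboxylesterase *Ces1g* 109 CPM against 2 counts, and the cytochrome P450 *Cyp4f14* 141 CPM against 9 counts (ratio of means 3473, 95% counting interval 1829 to 7595). The intervals cover counting error only. At the other extreme, 9559 genes reached 1 CPM in all 10 libraries. Among the most abundant with a small difference were the elongation factor *Eef2* (1669 ± 125 CPM in liver and 1883 ± 142 CPM in muscle, log2 difference −0.17, SE 0.18, edgeR adjusted p = 0.376) and the iron store *Fth1* (1321 ± 203 CPM in liver and 1016 ± 61.5 CPM in muscle, log2 difference 0.38, SE 0.17, edgeR adjusted p = 0.0623), neither of which was called by edgeR. DESeq2 called *Eef2* for muscle (adjusted p = 0.0483) and *Fth1* for liver (adjusted p = 0.00453). *Fth1* was also called by limma-voom (adjusted p = 0.00867).

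The tissue difference was also compared between genotypes. No gene passed the threshold for an interaction of tissue and genotype in edgeR (0 of 14756, 0.0%), with 639 genes at an unadjusted p under 0.05, and DESeq2 called 20. With 2 WT libraries per tissue this count rested on single libraries: without WT muscle replicate 1 it was 106, of which 101 were genes at least 4-fold higher in liver. WT muscle replicate 2, which carried hepatocyte transcripts, was then the only WT muscle, and the part of those transcripts was not tested. The counts do not show that the genotypes have the same tissue differences.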

How the data were processed

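RNA was taken from liver and quadriceps muscle and sequenced as unstranded poly(A) libraries. The authors deposited a table of raw read counts per gene for each sample. The submitters' processing notes name STAR 2.4.2a, HTSeq, DESeq2 and the mm10 build, and which tool made these counts is not given in the sources used here. The unstranded count column was used, and entries assigned to no gene (27.5 to 36.8% of a library) stayed out of totals and tests. Of 46078 gene identifiers, 45229 had a symbol, and all 605 listed genes were found. Genes with too few counts were removed by edgeR's filter, leaving 14756. Counts were scaled by TMM and fitted in edgeR 4.0.16 (R 4.3.3) by quasi-likelihood, with tissue and genotype over 10 libraries, and p-values were Benjamini-Hochberg adjusted over all genes (threshold 0.05). A second fit added the interaction. On simulated counts for this comparison (14573 genes) 49 and 50 of 50 genes changed 4-fold, and 49 and 48 of 50 changed 2-fold, were recovered in the 2 directions, with 8 false calls among the other genes. In the simulation all other genes had the same mean in both tissues, whereas 82.5% of genes were called in the data. It therefore cannot show how well scaling holds here, or the error rate among small differences.

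Shares of counts were compared by exact permutation tests. Levels between genes used CPM per kilobase of exon. Summed markers and white adipose values are CPM of library totals. Reads shared by near-identical genes or overlapping genes cannot be assigned with certainty. Ratios against 1 to 3 counts per library carry exact Poisson 95% intervals, and bounds against 0 counts assume 3 counts per library. Depth, 17495304 to 45967218 gene counts, makes counting error small beside the spread between libraries for all but the rarest transcripts. Alternatives were other scalings, filters, tools, blocks and the loss of each library (computed in R and Python 3.11.15). Without WT muscle replicate 2, and without E47KO liver replicate 3, list medians were recomputed after the data had been seen. Per the labels RNA was extracted with Qiazol, whereas the study's methods give RNeasy for liver and Qiazol followed by RNeasy for muscle. Named were *Tcf3* and *Nr3c1*, all genes of the isoform pair, E protein, GR and glucocorticoid target lists, the 5 most abundant called genes and the 5 genes with the largest differences that were near absent from the other tissue in each direction, 5 abundant shared genes, and up to 4 abundant and 3 contrary members of every other list. Other genes, mainly list members with the smallest differences, not called, or set beside a named gene, and the cell type markers, were chosen after their values were seen. Some genes of these rules and 3 isoform pairs are not reported here, though the counts include them. Members and lists were chosen with earlier results of these data known. Sequences came from RefSeq (GRCm38.p6). The 6 deposited tables of the whole series were not used.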

Additional observations from a re-analysis of the deposited data

Results flagged for a closer look

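Of 40 values examined for a library far from the other 4 of its tissue (Dixon's test), 4 stood out, and chance alone gives about 1 in 20. In muscle, E47KO muscle replicate 2 had the largest share of mitochondrial transcripts, at 11.68% of gene counts. Among livers, E47KO liver replicate 2 had the highest summed adipocyte markers, at 578.3 CPM, and WT liver replicate 2 had the highest summed B cell markers, at 5.201 CPM, and the lowest summed T and NK cell markers, at 1.086 CPM. Summed B cell markers were at 1.75 CPM in WT liver replicate 1 and at 0.349 to 0.749 CPM in the E47KO livers. In E47KO liver replicate 2 the adipocyte-restricted *Adipoq* was at 0, and *Car3* alone gave 533 CPM of the sum. *Car3* was at 1.77 to 125 CPM of library totals in the other livers. No cause was tested.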

How the results depend on the processing

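The count of genes called lay between 10347 (WT libraries alone) and 12579 in the alternatives, apart from 14621 of 26898 without a filter, all within 1.5 times of 12171. Upper quartile scaling moved the median of all genes by −0.21 and gave 5291 genes higher in liver and 6972 in muscle (43.2% of calls toward liver against 49.2%). Replicate numbers did not pair the samples throughout (correlation of deviations 0.115, 0.145 and 0.101 for E47KO and 0.014 for WT), where E47KO number 3 and WT number 2 joined different mice, and with 2 WT libraries per tissue the WT value cannot show pairing. Every E47KO library correlated best with its own number. With replicate number as a block 12141 genes were called, and with the 3 mice that gave both tissues as a block 11968. Interaction calls, 0 as reported, were 20 with DESeq2, 9 without a filter and 0 to 106 on leaving out a library. Without WT muscle replicate 2, 2 of 4 neutrophil markers were still higher in liver. Of 200 genes chosen for naming and tested, 166 kept direction and call in all alternatives. None of the 7 genes that changed direction had been called: *Tcf12* (−0.0771) and *Ptges3* (−0.0148) with upper quartile scaling, *Foxo1* (0.0576) with WT libraries alone, *Bhlhe40* (−0.0602) with E47KO libraries alone, and *Ddit4* (0.25 with WT libraries alone, 0.0721 by animal). *Ncor1* was at −0.0288 with E47KO libraries alone, −0.0364 with library totals, −0.0387 by animal, −0.0979 without a filter, −0.19 with upper quartile scaling and −0.0487 to 0.137 on leaving out a library. *Cebpd* was at 0.0526 with WT libraries alone, 0.0553 with limma-voom, 0.0428 with the replicate block, 0.0939 by animal and −0.205 to 0.257 on leaving out a library. Calls were lost in 108 alternatives (18 genes) and gained in 43 (11 genes, *Ptges3* and *Bhlhe40* among them). With WT libraries alone *Lpin1*, *Hsp90ab1*, *mt-Cytb* and *mt-Nd5* were among those lost. The cause of these changes was not tested. Depth in liver, less than in muscle, limits genes counted only in muscle: 3 counts per library are the floor.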
